A study of Mus musculus with 7 samples.

Results

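The transcripts of the mitochondrial genome were examined in the livers of mice fed a high-fat diet (HFD), with and without TET1. Members were all genes whose symbol in the deposited count tables starts with mt-, which gave 37 of 51426 genes, namely 13 protein-coding genes, 2 rRNA genes and 22 tRNA genes. The bulk liver RNA came from 3 WT and 4 TET1 KO mice, all male, labelled C57BL/6J and on the HFD for 16 weeks from the age of 8 weeks. No library of mice on a normal chow was analysed here, so every comparison is between genotypes within the diet. TET1 was deleted in the whole body, so the hepatocytes were not the only cells without it, and the labels do not name the knockout allele. The methods of the study list a whole-body line on a mixed B6;129S4 background (Tet1tm1.1Jae) and no backcross of it, so the background of the TET1 KO livers may differ from the C57BL/6J of their label. Each library is 1 mouse by the labels, and the study calls the controls of this line littermates, while the labels give no litter for any mouse.

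The mitochondrial genome is a small circle that is present in many copies per cell. It encodes core subunits of respiratory chain complexes I, III and IV and of the ATP synthase, together with the rRNAs and tRNAs that translate them. Both strands are transcribed as long precursors, from which the single RNAs are cut out, largely at the tRNAs that lie between them. Most of the mRNAs then receive a poly(A) tail, mt-Nd6 being the known exception, while the mitochondrial rRNAs carry only short tails. All factors for transcription, RNA processing and translation are made by nuclear genes and imported.

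All 37 genes had the same start and end in the RefSeq annotation of GRCm38, the build named by the submitters, and in GENCODE M1 (NCBIM37), in a mitochondrial genome of 16299 bases. Of these genes, 9 lie on the minus strand of the reference, and they are mt-Nd6 and 8 of the tRNA genes. The protein-coding genes have no introns and several overlap. mt-Atp8 (MT:7766-7969) shares its last 43 bases with mt-Atp6 (MT:7927-8607), and mt-Nd4l (MT:9877-10173) shares its last 7 bases with mt-Nd4 (MT:10167-11544). Each of these pairs is carried by 1 bicistronic mRNA. Both upstream reading frames are given because their counts relative to their partners differed between the mice. Capitals mark the bases that also belong to the downstream gene, in the sequences of the GENCODE M1 transcripts.
mt-Atp8: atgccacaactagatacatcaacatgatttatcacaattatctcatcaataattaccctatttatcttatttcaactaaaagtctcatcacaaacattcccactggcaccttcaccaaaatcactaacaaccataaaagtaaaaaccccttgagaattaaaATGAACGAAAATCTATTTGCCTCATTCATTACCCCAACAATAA
mt-Nd4l: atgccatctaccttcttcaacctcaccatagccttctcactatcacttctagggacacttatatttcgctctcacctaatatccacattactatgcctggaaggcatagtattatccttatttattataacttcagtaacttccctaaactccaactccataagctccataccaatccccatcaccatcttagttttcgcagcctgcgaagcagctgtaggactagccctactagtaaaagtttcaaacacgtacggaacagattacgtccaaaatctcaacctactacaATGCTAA

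The 3′ ends are shown because the tail of a message, on which poly(A) selection also acts, is part of the reading frame in some of these genes. In 3 of the 13 protein-coding genes (mt-Co3, mt-Nd4 and mt-Cytb) the annotated gene stops after the T of its last codon, and the added poly(A) tail completes a stop codon. The last 30 bases of these genes are shown beside those of mt-Co2 and mt-Nd5, whose stop codon is encoded. Capitals mark the stop codon or the part of it that is encoded.
mt-Co3 end: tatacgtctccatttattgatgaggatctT
mt-Nd4 end: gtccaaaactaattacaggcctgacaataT
mt-Cytb end: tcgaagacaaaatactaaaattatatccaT
mt-Co2 end: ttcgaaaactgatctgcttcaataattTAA
mt-Nd5 end: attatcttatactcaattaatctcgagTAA

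Part of the mitochondrial genome is also present in the nucleus as a near-identical copy, and the counts of the members have to be read with it. A stretch of 4654 aligned bases on chromosome 1 (chr1:24618374-24623027 of NCBIM37, minus strand) matched mitochondrial bases 6390 to 11042 with 99.936% identity. It holds 11 mitochondrial genes whole, of which 6 are protein-coding, and parts of mt-Co1 and mt-Nd4. mt-Co2, mt-Atp8, mt-Atp6, mt-Co3 and mt-Nd4l have no difference from the copy over their whole length. The aligned parts of mt-Nd3 (345 of 348 bases) and mt-Nd4 (876 of 1378 bases) were identical too. The aligned part of mt-Nd3 started at base 4, so it does not show whether the bases before it differ. The whole stretch had 2 mismatches and 1 gap base, and those outside mt-Co1 were not assigned to genes. The only base by which a protein-coding member differed from the copy inside its aligned part lay in the 483 aligned bases of mt-Co1. That difference is A1066T, with the mitochondrial base first and the position counted from the first base of the gene, and it stands in capitals in the 30 bases given for both sequences.
mt-Co1: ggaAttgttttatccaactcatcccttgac
chromosome 1 copy: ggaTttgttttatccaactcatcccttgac

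The next best stretches, on chromosome 2 (97.362% identity, with all of mt-Co1 and mt-Co2 and part of mt-Nd2) and chromosome 4 (93.009% identity, with mt-Nd6, mt-Cytb and part of mt-Nd5), differ at many more bases, and no nuclear match was found for mt-Nd1. Counts of the copied genes and of 7 nuclear gene models on copies (Gm10925, Gm10222, Gm28437, Gm28438, Gm28439, Gm28661 and Gm29216) can therefore hold reads of the same molecules, and the way in which the authors counted reads with several matches is not given in the sources used here.

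Library sizes lay between 15005277 and 22746138 counts, with a median of 19517780. Tet1, the targeted gene, had between 1 and 4 counts in every library of either genotype, so that its mRNA does not check the labels at this depth. Hepatocyte markers were high in all livers, with summed values of 78260 to 98321 CPM (counts per 1000000 counts of the TMM-scaled library) in WT and 88101 to 98681 in TET1 KO livers, and no marker of the 6 lists for other cells was called by edgeR (0 of 39 tested, against 2.02% of all genes), where 11 had an unadjusted p under 0.05, against 26.3% of all genes. The summed cholangiocyte markers Krt7, Krt19, Epcam, Sox9 and Spp1 lay between 29.7 and 37.8 CPM in WT and between 46.1 and 67.9 CPM in TET1 KO livers, while the summed endothelial markers lay between 145 and 150 CPM and between 119 and 144 CPM. DESeq2 called 6 of these 39 markers at an adjusted p under 0.05, against 9.14% of all genes, with Sox9 and Epcam higher and Lyve1, Col3a1, Col1a1 and Col1a2 lower in TET1 KO livers. The 3 collagen genes, stellate cell markers here, had log2 fold changes of -0.99, -0.96 and -0.84 in edgeR (adjusted p from 0.0854 to 0.101), while the summed stellate markers overlapped, with 233 to 401 CPM in WT and 219 to 293 CPM in TET1 KO livers. The summed red blood cell markers were 869, 826 and 777 CPM in WT and 219, 488, 427 and 1112 CPM in TET1 KO livers. They overlapped between the groups, and their order among the 4 TET1 KO livers was the reverse of that of the mitochondrial rRNA share given with the rRNA genes. The WT livers did not show this, since WT replicate 1 was the highest of them in both. Among 11 hepatocyte markers, edgeR called 0, against 2.02% of all genes, and 2 had an unadjusted p under 0.05, against 26.3%. DESeq2 called 1, against 9.14%, namely Apoa1, the main protein of high-density lipoprotein. Apoa1 had 6214, 4280 and 5377 CPM in WT and 14205, 11368, 10175 and 9581 CPM in TET1 KO livers, without overlap, a log2 change of 1.10 (SE 0.32, adjusted p = 0.0818 in edgeR and 1.67e-06 in DESeq2). No marker of these lists was at 0 in every library, and the part of these shifts in the results on mitochondrial transcripts was not tested. In bulk tissue, fewer cells of a type and less RNA per cell cannot be told apart.

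Mitochondrial transcripts made up a large share of every liver library, and the total did not separate the genotypes. The share of all counts on mt- genes was 9.98%, 7.25% and 9.51% in WT replicates 1 to 3, and 14.4%, 10.3%, 10.9% and 8.78% in TET1 KO replicates 1 to 4. The highest share was that of TET1 KO replicate 1 and the lowest that of WT replicate 2, and TET1 KO replicate 4 lay below WT replicates 1 and 3. The mean was 8.91% ± 1.46 (SD, n = 3) in WT and 11.1% ± 2.37 (SD, n = 4) in TET1 KO livers, a ratio of 1.25. Counting error was far smaller than this spread, since the 95% Wilson interval of a share reached at most 0.0188 percentage points to either side. Among the 20 genes with the most counts, 9 were mitochondrial.

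The protein-coding genes held most of this share. They took 9.06%, 6.73% and 8.67% of the counts in the WT livers and 11.7%, 9.23%, 9.62% and 7.81% in the TET1 KO livers, so that the groups overlapped. The 7 nuclear gene models on copies added 1.94% to 2.75% in WT and 2.49% to 3.90% in TET1 KO livers. Relative to the sum of mitochondrial and copy counts they took between 21.1% and 22.1% in the 7 libraries, with overlap. Per count on the 8 mRNA genes that the chromosome 1 copy matches wholly or in part, they had 0.476, 0.442 and 0.460 counts in WT and 0.516, 0.496, 0.492 and 0.489 counts in TET1 KO livers, which were all above the WT livers. This denominator holds all counts of mt-Co1 and mt-Nd4, of which only a part is copied. The share of other such ratios without overlap was not computed.

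The 2 rRNA genes, mt-Rnr1 (12S) and mt-Rnr2 (16S), which form the RNA core of the small and the large mitochondrial ribosomal subunit, had a share of the library that did not overlap between the groups. This share was 0.921%, 0.524% and 0.845% in WT livers and 2.66%, 1.12%, 1.30% and 0.977% in TET1 KO livers. All TET1 KO livers were above the WT livers, although the margin between TET1 KO replicate 4 and WT replicate 1 was small. The mean share was 0.763% ± 0.211 (SD, n = 3) in WT and 1.52% ± 0.777 (SD, n = 4) in TET1 KO livers, a ratio of 1.99, or 0.99 on the log2 scale. Without TET1 KO replicate 1, whose share exceeded that of any other liver by a wide margin, the log2 ratio was 0.57, and the log2 ratio of the total share fell from 0.32 to 0.17.

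**Figure D1:**
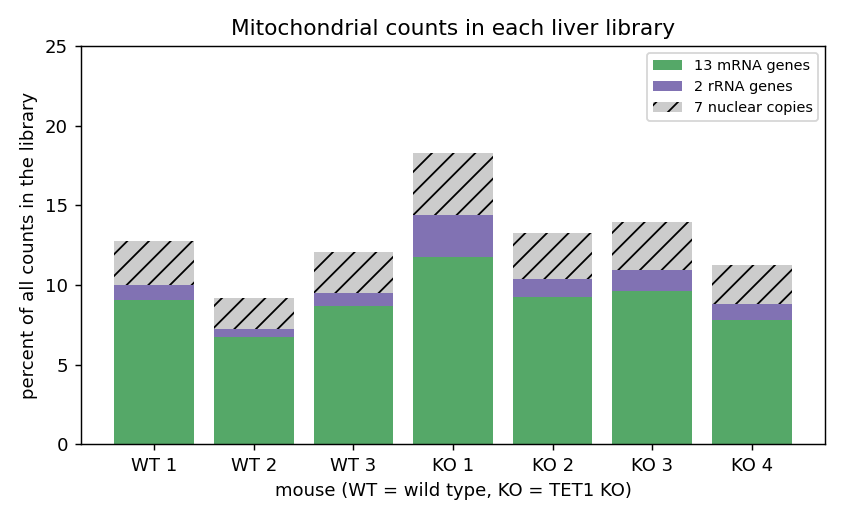
Percent of all counts of each liver library on the 13 mitochondrial mRNA genes, the 2 rRNA genes and, hatched, the 7 nuclear gene models on copies, stacked for 3 WT and 4 TET1 KO mice; the tRNA genes, with 31 counts in all, are too few to be seen. TET1 KO replicate 1 has the highest share and WT replicate 2 the lowest, while the remaining livers of both genotypes lie between 8.78% and 10.9% of mitochondrial counts.

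In the test across all genes, no mitochondrial transcript was called. The edgeR quasi-likelihood test with Benjamini-Hochberg adjustment was fitted to the 14754 genes that passed a filter on low counts, among them all protein-coding and rRNA members (15), while the 22 tRNA genes did not pass. At an adjusted p under 0.05, 0 of the 15 were called, against 2.02% of all genes tested (0.874% higher and 1.15% lower in TET1 KO). At an unadjusted p under 0.05 there were 3 of 15 (mt-Nd3, mt-Rnr1 and mt-Rnr2), against 26.3% of all genes. DESeq2, another test on the same counts, called 2 of 15 (mt-Nd3 with an adjusted p of 0.0357 and mt-Rnr1 with 0.0407), against 9.14% of all genes. Of the 15 log2 fold changes of TET1 KO over WT (log2 changes, given with their standard error, SE), 13 were positive, against 51.1% of all genes tested, and their median was 0.42, against 0.012 over all genes. That median was 0.26 without WT replicate 2 and 0.33 without TET1 KO replicate 1. These values are not independent of each other, because 13 of the 15 transcripts were highest in TET1 KO replicate 1 and 14 were lowest in WT replicate 2.

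**Figure D2:**
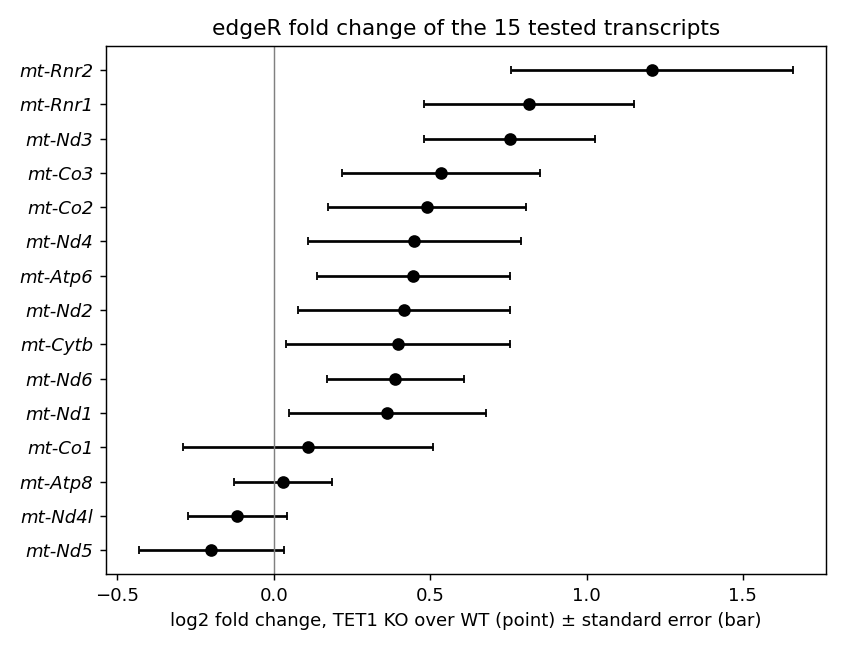
Log2 change (TET1 KO over WT) of the 13 mRNAs and 2 rRNAs in edgeR, with bars of 1 standard error (SE) on a linear axis. The values run from -0.20 for mt-Nd5 to 1.21 for mt-Rnr2, and none has an adjusted p under 0.05.

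Both rRNAs were at the top of this order. mt-Rnr2 (MT:1094-2675) had TMM-normalized values of 5910, 3139 and 5139 CPM in WT livers and 20015, 7741, 9544 and 6457 CPM in TET1 KO livers. It was the only one of the 15 transcripts whose groups did not overlap, against 22.5% of all genes tested, and TET1 KO replicate 1 stood far above the rest. Its log2 change was 1.21 (SE 0.45, adjusted p = 0.128 in edgeR), and it fell to 0.74 without that mouse. mt-Rnr1 (MT:70-1024) had 2925, 1795 and 3214 CPM in WT and 7162, 4081, 4215 and 3163 CPM in TET1 KO livers, where the last of these values lay just below WT replicate 3. Its log2 change was 0.82 (SE 0.34, adjusted p = 0.158 in edgeR), or 0.53 without TET1 KO replicate 1.

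Of the rRNA counts, mt-Rnr2 held more than mt-Rnr1 in every liver. mt-Rnr2 is also the longer gene, with 1582 against 955 bases. Per kb of gene, without TMM, it lay below mt-Rnr1 in WT replicate 3, with 3285 and 3403 CPM, and above it in all other livers. The ratio of mt-Rnr2 to mt-Rnr1 counts was 2.02, 1.75 and 1.60 in WT and 2.79, 1.90, 2.26 and 2.04 in TET1 KO livers, and the groups overlapped. When set against the mitochondrial mRNAs of the same library, a ratio in which the scaling between libraries cancels, the rRNA counts still lay higher in the TET1 KO livers. There were 0.102, 0.0779 and 0.0975 rRNA counts per mRNA count in WT and 0.227, 0.121, 0.136 and 0.125 in TET1 KO livers. All 4 TET1 KO livers were above all 3 WT livers, with means of 0.0923 ± 0.0127 (SD, n = 3) and 0.152 ± 0.0503 (SD, n = 4). The log2 ratio of the means was 0.72, or 0.46 without TET1 KO replicate 1. The labels describe both poly(A) selection and, as an alternative, removal of rRNA, without saying which was used, so that the rRNA share is what was left in a prepared library and not the rRNA content of the liver.

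The gene models linked to cytosolic rRNA overlapped between the groups and had log2 changes of both signs. Gm42418, a gene model on which reads of the nuclear rRNA repeat are often counted, had between 7579 and 17368 CPM in WT and between 7302 and 13605 CPM in TET1 KO livers, with a log2 change of -0.46 (SE 0.40, adjusted p = 0.478 in edgeR). It was -0.75 without WT replicate 2, -0.27 without WT replicate 3 and -0.26 with the replicate numbers as a block. AY036118 had 4.60 to 12.4 CPM in WT and 5.93 to 12.1 CPM in TET1 KO livers. Gm26917 was highest in TET1 KO replicate 1 with 418 CPM, and it had 195, 66.6 and 128 CPM in WT and 164, 202 and 145 CPM in the other TET1 KO livers. Its log2 change was 0.84 (SE 0.40, adjusted p = 0.212 in edgeR), as large as that of mt-Rnr1, and was 0.39 without TET1 KO replicate 1 and 0.51 without WT replicate 2. With that block, whose numbers do not pair the mice, its adjusted p was 0.0184. Of the nuclear-encoded RNAs without a poly(A) tail, 3 were tested. None was called by edgeR, against 2.02% of all genes, or by DESeq2, against 9.14%, and all 3 had a negative log2 change, while 51.1% of all genes had a positive one. Rmrp had 2.56, 1.33 and 2.87 CPM in WT and 1.56, 1.48, 0.409 and 0.834 CPM in TET1 KO livers, with a log2 change of -1.10 (SE 0.43, adjusted p = 0.141 in edgeR). Rpph1 and Rn7sk had -0.34 and -0.29 (SE 0.42 and 0.32), and the groups of all 3 overlapped.

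The 7 subunits of complex I, the NADH dehydrogenase that feeds electrons into the chain, did not move together. mt-Nd3 (MT:9459-9806) had 1176, 746 and 1267 CPM in WT and 2322, 1842, 1861 and 1146 CPM in TET1 KO livers. Of the TET1 KO livers, 3 were above all WT livers and replicate 4 was below WT replicates 1 and 3. Its log2 change of 0.75 (SE 0.27, adjusted p = 0.123 in edgeR) had the smallest unadjusted p of the 15, 0.0191. That change was 0.55 without WT replicate 2, 0.61 without TET1 KO replicate 1 and 0.92 without TET1 KO replicate 4. mt-Nd5 (MT:11742-13565), the longest of the genes, had 3857, 3059 and 4075 CPM in WT and 3179, 2839, 3752 and 2989 CPM in TET1 KO livers. Its log2 change was -0.20 (SE 0.23, adjusted p = 0.601 in edgeR), and the livers of both groups were mixed.

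mt-Nd4l had 382, 311 and 432 CPM in WT and 363, 318, 389 and 314 CPM in TET1 KO livers, with a log2 change of -0.12 (SE 0.16). Its partner on the same mRNA, mt-Nd4, had 9134, 6278 and 9169 CPM in WT and 13843, 11210, 11791 and 7923 CPM in TET1 KO livers, with a log2 change of 0.45 (SE 0.34). mt-Nd1, mt-Nd2 and mt-Nd6 lay between them with 0.36, 0.42 and 0.39 (SE 0.31, 0.34 and 0.22), and the groups of all 3 overlapped. Without TET1 KO replicate 1 these were 0.18, 0.24 and 0.22, and without WT replicate 2 they were 0.21, 0.26 and 0.23. Adjusted p-values of these 5 genes in edgeR ran from 0.276 for mt-Nd6 to 0.659 for mt-Nd4l.

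Complex IV, cytochrome c oxidase, has 3 subunits among the members. mt-Co1 (MT:5328-6872), the catalytic subunit and the mitochondrial gene with the most counts, had 22804, 19238 and 23445 CPM in WT and 27150, 22801, 23781 and 20464 CPM in TET1 KO livers, and the log2 change was 0.11 (SE 0.40). That change was 0.016 with scaling by library size only and 0.17 with the replicate block. mt-Co2 had 4607 to 6888 CPM in WT and 6321 to 11030 CPM in TET1 KO livers, and mt-Co3 had 5042 to 7447 CPM and 7141 to 11746 CPM. The log2 changes of mt-Co2 and mt-Co3 were 0.49 and 0.54 (both with an SE of 0.32). In both, TET1 KO replicate 4 lay below WT replicate 1.

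mt-Cytb, the mitochondrial subunit of complex III, had 13004, 8917 and 13222 CPM in WT livers. In TET1 KO livers it had 16825, 16436 and 16373 CPM in replicates 1 to 3 and 12084 CPM in replicate 4, which lay inside the WT range. The log2 change was 0.40 (SE 0.36, adjusted p = 0.492 in edgeR). Of the ATP synthase subunits, mt-Atp6 had 4689 to 7029 CPM in WT and 6157 to 9908 CPM in TET1 KO livers, with a log2 change of 0.45 (SE 0.31). mt-Atp8 had 516 to 646 CPM and 568 to 660 CPM, with a log2 change of 0.029 (SE 0.16) that was -0.064 with scaling by library size only. WT replicate 2 weighed on many of these values. Without it, the log2 change was 0.28 for mt-Nd4 and for mt-Atp6, 0.33 for mt-Co2, 0.23 for mt-Cytb, 0.019 for mt-Co1, -0.24 for mt-Nd4l and -0.32 for mt-Nd5. Other single mice moved mt-Nd4l to between -0.19 (without TET1 KO replicate 3) and -0.024 (without WT replicate 3), and mt-Co1 to 0.035 without TET1 KO replicate 1 and 0.17 without TET1 KO replicate 4.

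Per length, the levels of the transcripts spanned more than an order of magnitude. CPM per kb of gene, without TMM, averaged 14742 ± 1386 (SD, n = 7) for mt-Co1, the highest, and 425 ± 107 for mt-Nd6, the lowest. mt-Co1 was above mt-Cytb (12018), and mt-Cytb above mt-Atp6 (10690), in 7 of 7 libraries. mt-Atp6, mt-Co2 (10688) and mt-Co3 (10212) did not hold a fixed order, since neighbours kept it in 5 and 6 libraries. Below them, mt-Nd2 (7960) lay above mt-Nd4 (7139) in every library, whereas mt-Nd4 was above mt-Nd1 (6776) in 4 of 7.

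Further down, mt-Rnr2 (5169 ± 3379), mt-Nd3 (4207 ± 1417) and mt-Rnr1 (3934 ± 1667) changed places between mice. mt-Rnr1 was above mt-Atp8 in 5 of 7 libraries. Their means were 2864 and 3059 in WT and 4736 and 2926 in TET1 KO livers. mt-Atp8 (2983), mt-Nd5 (1863), mt-Nd4l (1207) and mt-Nd6 kept their order in 7 of 7 libraries. The reading frames at both ends of the bicistronic mRNAs thus stood far apart, mt-Atp8 at 2983 beside mt-Atp6 at 10690 and mt-Nd4l at 1207 beside mt-Nd4 at 7139. The length used is that of the whole gene, overlapping bases included, and how reads over these bases were counted is not given in the sources used here.

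**Figure D3:**
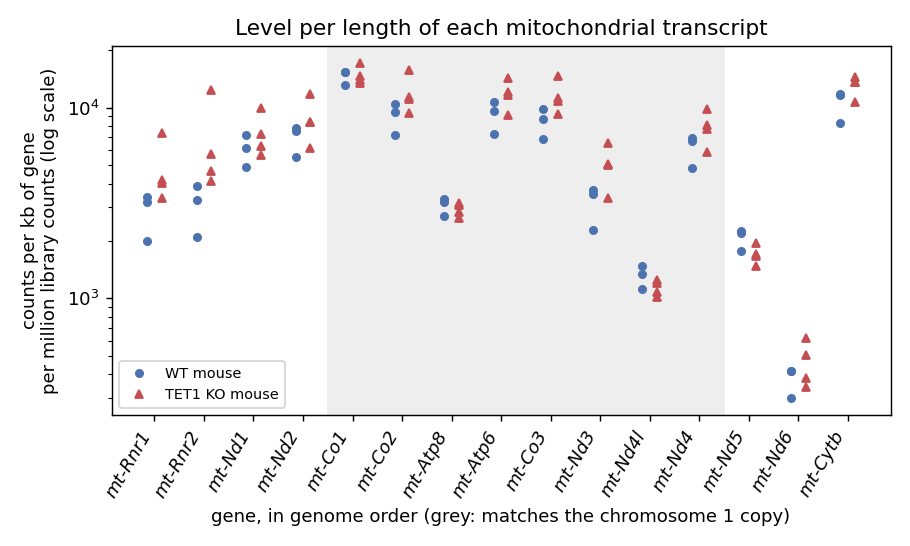
CPM per kb of gene, without TMM, on a log axis, for the 2 rRNAs and 13 mRNAs in genome order, with circles for WT and triangles for TET1 KO mice; genes on grey match the chromosome 1 copy wholly or in part. mt-Co1 is highest with a mean of 14742 and mt-Nd6 lowest with 425, and mt-Atp8 and mt-Nd4l lie below the genes on either side of them.

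Within the pool of mitochondrial mRNA, 3 mRNAs held a larger and 3 a smaller part in all TET1 KO livers than in any WT liver. For each gene the percent of the summed counts of the 13 mRNAs was taken in every library, which removes the share of mitochondrial RNA in the library. The groups did not overlap for 6 of the 13 mRNAs, while the same ratio to mitochondrial mRNA counts gave groups without overlap for 15.2% of all genes tested. Nearly all of those genes are nuclear. Their ratio also carries the spread of the mitochondrial share between mice, which cancels for the 13 mRNAs. The 15.2% is therefore no like measure for the 6 of 13. The 13 percentages sum to 100% in each liver, so a higher share of some requires a lower share of others, and no test was run on them.

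Of the 6 mRNAs, 3 held a larger part in every TET1 KO liver. mt-Nd3 took 1.35%, 1.18% and 1.48% of the pool in WT and 1.94%, 1.89%, 1.83% and 1.49% in TET1 KO livers, a ratio of means of 1.34, with TET1 KO replicate 4 only just above WT replicate 3. mt-Co3 took 8.56%, 7.96% and 7.88% in WT and 9.82%, 9.52%, 8.89% and 9.29% in TET1 KO livers, a ratio of 1.15. For mt-Co2 the values were 7.92%, 7.27% and 7.51% against 9.22%, 8.19%, 8.12% and 8.22%, a ratio of 1.12. Taken as a percent of all mitochondrial counts, rRNA included, only mt-Co3 of these 3 kept the groups apart, with 7.18% to 7.77% in WT and 7.83% to 8.49% in TET1 KO livers. On that denominator mt-Co2 was at 7.15% in TET1 KO replicate 3 and 7.19% in WT replicate 1, and mt-Nd3 at 1.33% in TET1 KO replicate 4 and 1.35% in WT replicate 3, so that both overlapped. All 3 genes lie in the part of the genome that chromosome 1 copies.

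The other 3 held a smaller part in every TET1 KO liver. mt-Nd5 took 4.44%, 4.83% and 4.76% in WT and 2.66%, 2.91%, 3.70% and 3.89% in TET1 KO livers, a ratio of 0.704. mt-Nd4l took 0.440%, 0.492% and 0.504% in WT and 0.304%, 0.326%, 0.384% and 0.408% in TET1 KO livers, a ratio of 0.743. mt-Atp8 averaged 0.770% ± 0.0395 (SD, n = 3) in WT and 0.631% ± 0.0831 (SD, n = 4) in TET1 KO livers, a ratio of 0.820. For mt-Atp8 the gap was narrow, with 0.743% in WT replicate 1 and 0.739% in TET1 KO replicate 4. As a percent of all mitochondrial counts these 3 also held a smaller part without overlap, and so did mt-Co1. For that denominator the share of all genes without overlap was not computed. mt-Nd4l and mt-Atp8 are copied on chromosome 1, whereas mt-Nd5 is matched only by the more distant stretch on chromosome 4.

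mt-Co1 took the largest part of the pool in all livers. Its share was 26.2%, 30.4% and 27.4% in WT and 22.7%, 23.4%, 23.4% and 26.6% in TET1 KO livers, with means of 28.0% and 24.0% and groups that overlapped through TET1 KO replicate 4. mt-Cytb (14.8% and 15.7% on average) and mt-Nd4 (10.4% and 11.3%) followed, and neither separated the groups. Across the 13 genes, the log2 ratio of shares and the gene length had a Spearman correlation of -0.13, given as a description over genes that share the same 7 libraries.

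**Figure D4:**
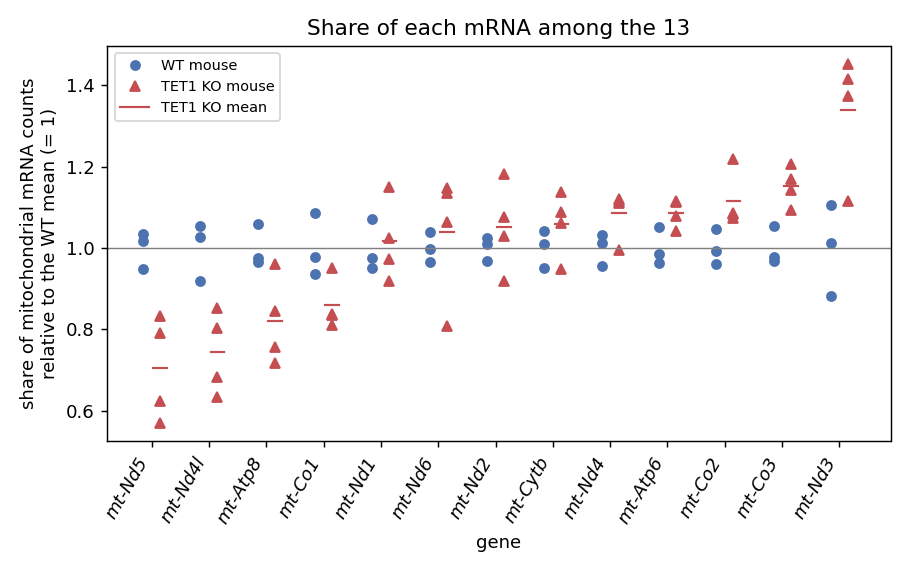
Share of each gene among the counts of the 13 mitochondrial mRNAs, divided by the mean of the WT mice, on a linear axis; each circle is 1 WT mouse, each triangle 1 TET1 KO mouse, and short lines are TET1 KO means. mt-Nd5, mt-Nd4l and mt-Atp8 lie below and mt-Co2, mt-Co3 and mt-Nd3 above the WT mice in all 4 TET1 KO mice, with mean ratios from 0.704 to 1.34.

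Both bicistronic mRNAs had fewer counts on the upstream frame per count on the downstream frame in the TET1 KO livers. For mt-Nd4l per mt-Nd4 count the ratios were 0.0418, 0.0496 and 0.0471 in WT and 0.0262, 0.0283, 0.0330 and 0.0396 in TET1 KO livers, without overlap. For mt-Atp8 per mt-Atp6 count they were 0.0919, 0.110 and 0.0991 in WT and 0.0667, 0.0680, 0.0761 and 0.0923 in TET1 KO livers, where replicate 4 lay just above WT replicate 1. In both ratios TET1 KO replicate 4 was the nearest to the WT livers. Their overlap was not set against that of other gene pairs.

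At mt-Nd5 and mt-Nd6, which face each other on opposite strands and overlap by 14 bases, the counts of mt-Nd6 per count of mt-Nd5 were higher in the TET1 KO livers. There were 0.0536, 0.0477 and 0.0521 counts of mt-Nd6 per count of mt-Nd5 in WT and 0.103, 0.0662, 0.0733 and 0.0652 in TET1 KO livers, again without overlap. How often ratios between other genes keep the groups apart was not computed. The share of mt-Nd6 in the mRNA pool itself overlapped, with means of 0.239% and 0.248%. The libraries were stranded by their labels, but the strand setting of the counting is not given in the sources used here, so reads of mt-Nd6 and of RNA antisense to it cannot be told apart.

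**Figure D5:**
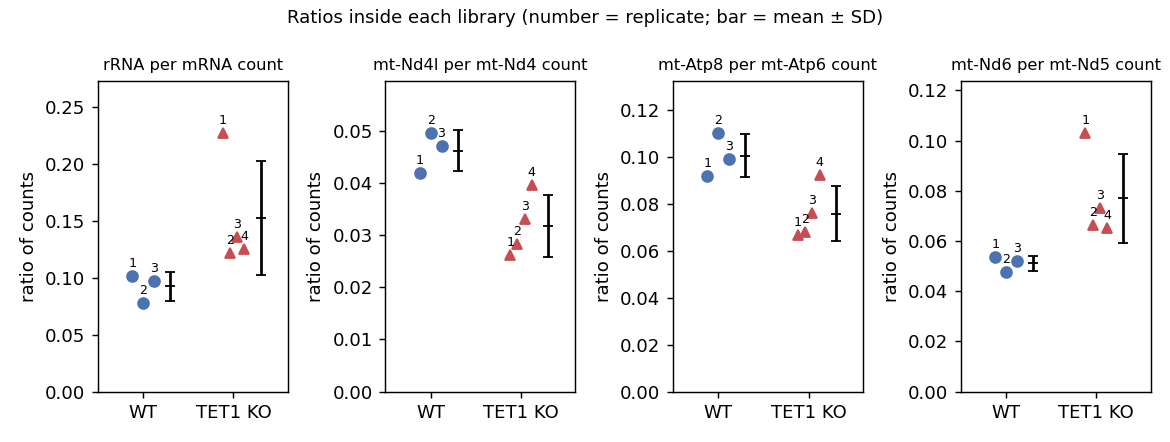
Ratio of counts within each library, on linear axes from 0, for rRNA per mRNA, mt-Nd4l per mt-Nd4, mt-Atp8 per mt-Atp6 and mt-Nd6 per mt-Nd5; circles are WT and triangles TET1 KO mice, numbers give the replicate, and bars are the mean ± SD of 3 WT and 4 TET1 KO mice. Groups overlap only for mt-Atp8 per mt-Atp6, through TET1 KO replicate 4.

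Of the 7 nuclear gene models, 2 were set beside the mitochondrial gene of the same length. Gm10925 (chr1:24613971-24614651 of GRCm38) has the length of mt-Atp6, 681 bases, and had 0.866, 0.864 and 0.875 counts per mt-Atp6 count in WT and 0.860, 0.853, 0.851 and 0.858 in TET1 KO livers, which lay slightly lower without overlap. Gm10222 (chr1:24612404-24612700 of GRCm38) has the length of mt-Nd4l, 297 bases, and had 0.850 to 0.877 counts per mt-Nd4l count in WT and 0.851 to 0.861 in TET1 KO livers, with overlap. Their log2 changes, 0.43 and -0.13 (SE 0.30 and 0.16), stood beside 0.45 and -0.12 for the mitochondrial genes. Without WT replicate 2 those of the models were 0.26 and -0.26, and that of Gm10222 was -0.023 without WT replicate 3 and -0.20 without TET1 KO replicate 3. The remaining 5 models were not paired with a member here, and they had log2 changes from -0.026 for Gm28439 to 0.74 for Gm28438. None of the 7 was called by edgeR, against 2.02% of all genes tested, and 1 had an unadjusted p under 0.05, against 26.3%. DESeq2 called 1 of the 7, against 9.14% of all genes, namely Gm28438, higher in TET1 KO with an adjusted p of 0.0424 (0.128 in edgeR). In edgeR with the replicate block, Gm28438 had an adjusted p of 0.0455. Since both sets can hold the same reads, the models are no second measurement of the members.

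The tRNA genes were nearly absent from the counts, with 31 of 13322709 mitochondrial counts over the 7 libraries. At 59 to 75 bases these genes are shorter than the mRNAs and rRNAs by far. No count was seen on 17 of the 22 in any library, which allows up to 3 counts per library, and the highest count of any tRNA gene in a library was 4. The 5 with counts were mt-Ts1 (serine, 11 counts in all), mt-Te (glutamate, 10), mt-Tq (glutamine, 4), mt-Ti (isoleucine, 3) and mt-Tm (methionine, 3). mt-Ts1, mt-Te and mt-Tq lie on the minus strand and together held 25 of the 31 counts. Each WT liver had 0 counts of mt-Ts1, while TET1 KO replicates 1 to 4 had 4, 2, 2 and 3, values near the floor of 3 counts for which no fold change is given.

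The nuclear genes that copy, transcribe and process the mitochondrial genome gave no call. Of 50 such genes, which were all tested, 0 passed the edgeR test in either direction, against 2.02% of all genes tested, and DESeq2 called none. At an unadjusted p under 0.05 there were 10 (against 26.3% of all genes), and the median log2 change was 0.016. Polrmt, the mitochondrial RNA polymerase, had 19.2, 14.3 and 16.5 CPM in WT and 25.1, 16.9, 21.0 and 17.3 CPM in TET1 KO livers, with a log2 change of 0.27 (SE 0.18), or 0.14 without TET1 KO replicate 1 and 0.16 without WT replicate 2. Tfam, which packages the mitochondrial genome and is needed to start transcription, had 33.8, 41.8 and 34.1 CPM in WT and 25.8, 26.4, 26.4 and 32.3 CPM in TET1 KO livers. All TET1 KO livers were below the WT livers for Tfam, with a log2 change of -0.40 (SE 0.14, adjusted p = 0.113 in edgeR).

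The other genes named from this list did not pass the test either. Twnk, the helicase that unwinds the genome for its replication, had a log2 change of 0.0083 (SE 0.13), with a negative sign under RLE scaling and under library size only. Lrpprc, which stabilises the mitochondrial mRNAs and promotes their polyadenylation, had 0.057 (SE 0.15), and -0.039 under library size only. Its binding partner Slirp had 36.4, 25.7 and 35.2 CPM in WT and 50.5, 51.7, 46.7 and 37.4 CPM in TET1 KO livers, all of them above the WT livers, with a log2 change of 0.52 (SE 0.17, adjusted p = 0.0949 in edgeR). Polg2, the accessory subunit of the DNA polymerase of mitochondria, had 0.63 (SE 0.18, adjusted p = 0.0794 in edgeR).

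Regulators of mitochondrial biogenesis and the factors of mitochondrial translation had no call in edgeR among 10 and 12 genes, against 2.02% of all genes tested. At an unadjusted p under 0.05 there were 2 and 1, against 26.3% of all genes, and DESeq2 called 1 in each list (Ppargc1b and Gfm1), against 9.14% of all genes. Ppargc1a, a coactivator of genes for mitochondrial biogenesis, and its partner Esrra both had a log2 change of 0.27 (SE 0.16 and 0.15), and that of Esrra was 0.15 without WT replicate 3. With scaling by library size only they had 0.18 and 0.17. Ppargc1b, a relative of Ppargc1a, had 5.90, 4.60 and 3.80 CPM in WT and 14.6, 8.38, 7.61 and 5.84 CPM in TET1 KO livers, with 0.93 (SE 0.30, adjusted p = 0.0973 in edgeR), or 0.60 without TET1 KO replicate 1. Gabpa, a transcription factor of nuclear mitochondrial genes, had -0.41 (SE 0.17, adjusted p = 0.152 in edgeR), or -0.25 without WT replicate 2. Gfm1, an elongation factor of mitochondrial translation, had 58.6, 99.5 and 64.0 CPM in WT and 24.0, 42.8, 42.6 and 56.1 CPM in TET1 KO livers, which lay below the WT livers throughout. Its log2 change was -0.84 (SE 0.26, adjusted p = 0.0915 in edgeR). Taco1, which activates the translation of mt-Co1, and the release factor Mtrf1 had -0.66 and -0.34 (SE 0.31 and 0.22), with groups that overlapped for both, and -0.32 and -0.14 without WT replicate 2.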

How the data were processed

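The authors deposited 1 table of raw read counts per gene and mouse, made, per the submitters’ processing notes, with Trimmomatic 0.36, GSNAP and featureCounts 1.5.3 on GRCm38. The annotation and the options of the counting are not given in the sources used here. After 5 repeated identifiers were left out, counts of 51426 genes were joined by Ensembl identifier. Groups came from the sample titles. Members and gene lists were chosen with earlier results of these data known.

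The filter filterByExpr left 14754 genes, with 99.88% or more of each library, and these were compared between genotypes without covariates with edgeR 4.0.16 in R 4.3.3 (TMM, quasi-likelihood test, adjusted p under 0.05). The common biological coefficient of variation was 0.208. An alternative was DESeq2 1.42.0. In a simulation of this comparison, 191 of 200 changed genes were found by each tool, with 13 false calls by edgeR (14525 genes) and 25 by DESeq2 (14754 genes). The log2 changes put in were larger than that of any member, and only genes above a low level were changed. The simulation therefore does not show how often changes of the members' size are found. Shares and ratios are sums of counts, without a test. Except for ratios to the mitochondrial mRNA counts, how often the groups of a ratio do not overlap over all genes was not computed. Intervals and floors cover counting error only. Named genes were every member, Polrmt, Tfam, Twnk, Lrpprc, Ppargc1a, Esrra, and in lists with fewer than 5 calls the 3 with the smallest p. The RNAs without a poly(A) tail and the cell type markers were named after their values were seen. Nuclear copies were found in NCBIM37 with BLAST 2.17.0, and coordinates of NCBIM37 and GRCm38 were not converted. Symbols not found in the tables were not analysed here. Alternatives were other scalings, filters and denominators, the replicate block, and leaving out each mouse.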

Additional observations from a re-analysis of the deposited data

Results flagged for a closer look

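Among 66 values examined in the 4 TET1 KO livers, 5 had 1 mouse farther from the others than Dixon's critical value for 4 samples, which chance does in about 1 in 20 groups, or 3.3 of 66. The gap to the nearest mouse took 0.905 of the whole range for mt-Cytb and 0.901 for Tfam, both in TET1 KO replicate 4, which lay nearest to or inside the WT range. It took 0.908 for the share of mt-Nd4 in the mitochondrial mRNA counts, again in the same mouse. For TET1 KO replicate 1 this was seen in the rRNA counts per protein-coding count (0.865) and in the share of mt-Co2 in the mitochondrial mRNA counts (0.907). The WT group of 3 mice is too small for this measure.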

How the results depend on the processing

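The labels name no batch, and with 3 and 4 mice the precision is limited by the spread between mice. The mean share of mitochondrial genes and of their mRNAs (12 alternatives each), of their rRNAs (11) and the rRNA counts per mRNA count (10) stayed higher in TET1 KO. Leaving out 1 mouse at a time gave log2 ratios of 0.17 to 0.42 for the total, 0.11 to 0.32 for the mRNAs, 0.57 to 1.15 for the rRNAs and 0.46 to 0.82 for rRNA per mRNA. The lowest of each came without TET1 KO replicate 1, except for the mRNAs, where it came without WT replicate 2. Adding the nuclear copies, chosen after seeing the data, gave 0.33 for the total and 0.69 for rRNA per mRNA.

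Calls among the members went from 0 to 2 with DESeq2 and to 1, mt-Nd3 (adjusted p = 0.0458), with the replicate block. No member was called lower under any alternative. Among the nuclear genes of mitochondrial gene expression, 1 was higher with the replicate block, with DESeq2 and without TET1 KO replicate 4. In the same settings 2, 1 and 1 were lower. These were Ppargc1b (adjusted p = 0.0237, 0.0470 and 0.0484), Gfm1 (0.0190, 0.0273 and 0.0467) and, with the block only, Taco1 (0.0478). Leaving out single mice gave 0 to 1 calls in each direction, and the cause was not tested. The replicate numbers 1 to 3 did not pair the mice, since the deviations of libraries with the same number had correlations of 0.21, -0.12 and -0.10. Over all genes, calls went from 298 to 1327 with the block, 1332 with DESeq2, 592 without a filter, 891 without TET1 KO replicate 4 and 37 without WT replicate 2. They came to 187, 104 and 79 without TET1 KO replicates 1, 2 and 3. With library size only, 25.5% of the calls were higher, against 43.3% with TMM, and the median of all genes was -0.081.

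Signs turned only for log2 changes near 0 or with a wide spread. mt-Atp8 was -0.064 with library size only and ran from -0.078 to 0.073 when 1 mouse was left out. Twnk was -0.0052 with RLE scaling, -0.083 with library size only, -0.019 without a filter, -0.027 with the replicate block and -0.015 with DESeq2, and ran from -0.069 to 0.034 without 1 mouse. Lrpprc was -0.039 with library size only and ran from -0.047 to 0.18. Gm28439 ran from -0.13 to 0.017. AY036118 went from -0.19 to 0.032 with the block and ran from -0.54 to 0.017.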

Other observations

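Short nuclear transcripts were examined as well, because the 3 mitochondrial mRNAs with smaller shares include both the shortest genes and the longest. Over 12495 nuclear genes with a known transcript length (84.8% of those tested), the log2 fold change and the length had a Spearman correlation of -0.08 across genes, which are not independent replicates. The median log2 fold change was 0.082 in the genes of up to 1877 bases, the shortest 25%, and -0.017 in those of 4380 bases or more, the longest 25%.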
